A study of Mus musculus with 50 samples.

Results

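The difference between 2 radiation effects was measured in mouse sarcomas: the change in gene expression between 0 and 20 Gy in transplant tumors, minus the same change in primary tumors. It was taken over 48 of the 50 RNA sequencing libraries of the series. These were 16 transplants, 8 at each dose, and 32 primary tumors, 16 at each dose, with anti-PD-1 and isotype libraries pooled and the antibody kept as a term of the model. All tumors were p53/MCA sarcomas of the gastrocnemius muscle in 129/SvJae mice, harvested 3 days after treatment. Primary tumors arose in Trp53 fl/fl mice of 6 to 10 weeks after local injection of an adenovirus that expresses Cre recombinase, which deletes Trp53 in the cells it enters, and 300 µg of the carcinogen 3-methylcholanthrene (MCA), so that each was a tumor of its own. Transplants grew from 50000 cells of a line made from 1 untreated primary sarcoma, and were therefore repeats of 1 tumor in different mice, whereas the spread among primary tumors also held the differences between independent tumors. Hosts of transplants were syngeneic and were also recorded at 6 to 10 weeks, and their genotype was not given. At about 150 mm3 all mice were injected with 200 µg of anti-PD-1, which takes the brake from T cells that carry this checkpoint receptor, or of isotype control, and the whole left hind limb of the 20 Gy groups was irradiated. In each tumor model both antibodies were equally represented, with 4 transplants and 8 primary tumors per dose and antibody. The remaining 2 libraries, labelled as the parental tumor of the transplanted line and as the line, entered no comparison.

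Ionizing radiation breaks DNA, which stops dividing cells, switches on p53 where it is intact, and through DNA that reaches the cytosol induces type I interferon. In the following days myeloid cells enter the irradiated tumor, and T cells that recognise it release interferon-gamma, which induces GTPases, chemokines and the PD-1 ligand PD-L1. A model with an interaction term asks which of these changes were larger or smaller in one tumor model than in the other, a question apart from which genes radiation changed at all. A positive interaction means that the log2 change with radiation was more positive in transplants than in primary tumors, and a negative one that it was more negative.

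The libraries held between 31810461 and 54008259 counts each, of which 5 to 15.2% fell to their 10 leading genes. Levels are given as CPM, in which a gene's count is divided by the library total, itself scaled by trimmed mean of M values (TMM). Trp53 was counted at 25.7 to 45.8 (median 29.4) CPM in unirradiated and 39.8 to 45 (median 41.4) CPM in irradiated transplants, and at 20.2 to 48.5 (median 25.5) and 21.4 to 60.7 (median 30.5) CPM in primary tumors, which all hold host cells with the gene. Counts per gene do not separate deleted from retained exons, so these levels did not check the deletion, and the Trp53 interaction was 0.06 ± 0.22 (SE, edgeR adjusted p = 0.966). Col1a1, a collagen gene of mesenchymal cells, and the leukocyte gene Ptprc were present in all 48 tumors, with the former at no less than 597 CPM and the latter at no less than 59.9 CPM, while the keratinocyte gene Krt14 did not pass 0.836 CPM. Unirradiated transplants numbered 3 in both the isotype and the anti-PD-1 group stood apart from the rest. They held the highest levels of Ngp, 62.5 and 164 CPM against at most 5.38 in the other tumors, and of Slc4a1, 27.7 and 71.4 against at most 1.52, which mark developing neutrophils and red cells. Values without both, an alternative chosen after the data were seen, are added beside the lists and genes that they moved most. In whole tumors fewer cells of a type and less RNA per cell cannot be told apart.

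The radiation effect differed between the tumor models for 5 of 19327 genes at an adjusted p under 0.05 by edgeR's quasi-likelihood test with Benjamini-Hochberg adjustment, 0.0259% of those tested. The 3 with a positive interaction (0.0155%) were Abi1, Swap70 and Pea15a, and the 2 with a negative one (0.0103%) were Arg1 and Car4. At an adjusted p under 0.10 there were 30 genes (0.155%). An unadjusted p under 0.05 was reached by 1712 genes, 8.86% of those tested, of which 795 (4.11%) had a positive and 917 (4.74%) a negative interaction. DESeq2 called 79 genes, 30 positive and 49 negative, and limma voom called 9. All 5 genes called by edgeR were among those of DESeq2, and 4 were among those of voom, where Car4 had an adjusted p of 0.0863.

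Most of the 1712 genes had fitted radiation effects of opposite sign in the 2 models. Among them, 637 genes (37.2%) had a negative radiation effect in transplants and a positive one in primary tumors, a class that held 16.5% of all genes tested, and 514 (30%) had the reverse, against 13.5% of all. Genes with an effect of the same sign in both models made up the remaining 414 and 147. Since an interaction is the difference of the 2 effects, a larger share of opposite signs is part of what an unadjusted p selects, and these shares are a description. The median interaction over all genes was -0.004 on the log2 scale, with 5% of genes below -1.33 and 5% above 0.80, and the median SE was 0.31.

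**Figure D1:**
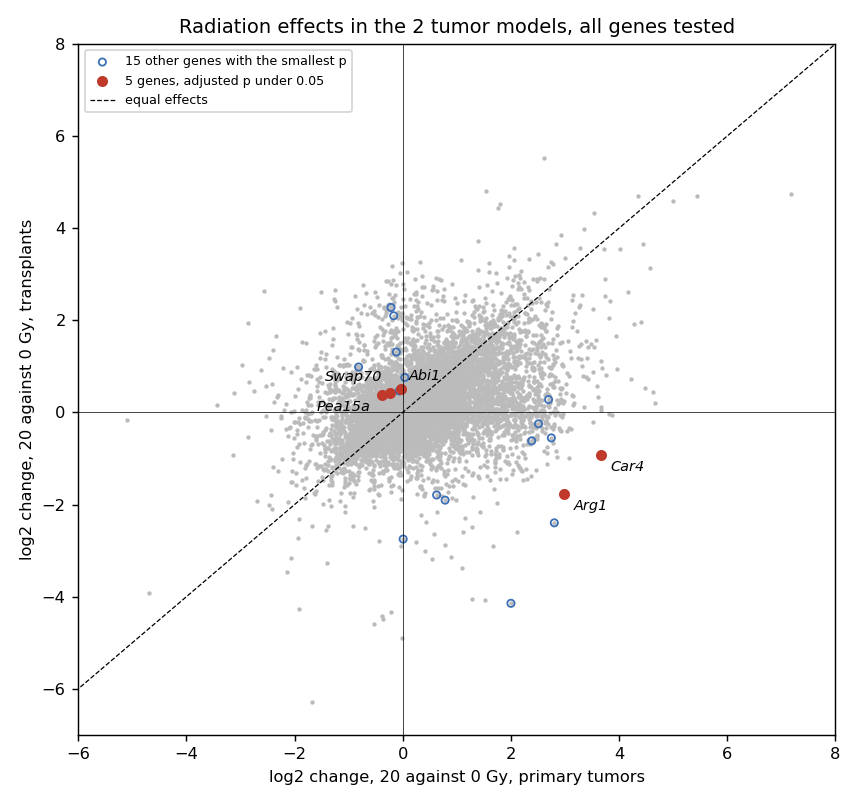
Each grey point is 1 of the 19327 genes, placed by its fitted log2 change between 0 and 20 Gy in primary tumors (horizontal) and in transplants (vertical); vertical distance from the dashed line of equal effects is the interaction. Of the 5 genes in red, Arg1 and Car4 lie to the lower right, with positive effects in primary tumors and negative ones in transplants, whereas Abi1, Swap70 and Pea15a lie just above the line near the origin.

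Arg1 had the smallest p of all genes. It encodes arginase 1, which splits arginine into ornithine and urea and is made by suppressive and wound-type myeloid cells. Levels ran from 8.35 to 123.2 (median 67.2) CPM in unirradiated transplants and from 4.14 to 41.1 (median 16.4) CPM in irradiated ones, and every irradiated transplant lay below the median of the unirradiated. In primary tumors they ran from 1.05 to 17.3 (median 7.35) CPM at 0 Gy and from 6.32 to 268 (median 36.6) CPM at 20 Gy, where 10 of 16 tumors were above every unirradiated one. Within each model the ranges of the 2 doses overlapped. The log2 change with radiation was -1.77 ± 0.66 (SE) in transplants and 2.99 ± 0.49 in primary tumors, and the interaction was -4.75 ± 0.84 (95% interval -6.44 to -3.07, adjusted p = 0.017). Irradiated primary tumors and unirradiated transplants had means of 63.7 ± 81.4 (SD, n = 16) and 63.2 ± 40.4 CPM (n = 8), and their ranges overlapped. Arg1 lies at chr10:24915221-24927484, reverse strand (GRCm38), and Gm36172, a noncoding gene that starts next to it on the other strand (chr10:24927619-24930059, forward strand) without overlap, was also among the 20 genes with the smallest p, with an interaction of -2.76 ± 0.65 and an adjusted p of 0.0939. Its counts were few, at most 31 per library, yet all 16 irradiated primary tumors were above all 16 unirradiated ones, as for 0.0466% of all genes in either direction. Neutrophil genes also had negative interactions, and with the mean of their list as a term that of Arg1 was -3.26 with an adjusted p of 0.0971. This term was chosen after the data were seen.

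The 3 genes with a positive interaction had interactions below 1 on the log2 scale and were abundant in every library. Abi1 encodes a subunit of the WAVE complex, which starts branched actin filaments. Its level was 105.4 ± 10.3 CPM (SD, n = 8) in unirradiated and 151 ± 24.7 CPM in irradiated transplants, with ranges of 88.3 to 119.1 and 122.03 to 203 that did not overlap. Such a gap between the 2 doses was found in transplants for 3.75% of all genes. Means in primary tumors were 112.8 ± 9.83 and 110.96 ± 10.1 CPM (n = 16), and the interaction was 0.54 ± 0.10 (adjusted p = 0.0215).

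Swap70, whose product binds phosphoinositides and filamentous actin and which is known from B and myeloid cells, ran from 56.9 to 92 (median 73.9) CPM in unirradiated and from 69.7 to 122.05 (median 99.06) CPM in irradiated transplants, 7 of 8 irradiated libraries being above all unirradiated. In primary tumors it ran from 84.6 to 124.7 (median 95.9) CPM at 0 Gy and from 69.8 to 102.5 (median 82.7) CPM at 20 Gy, with 10 of 16 below all unirradiated tumors. The effects were 0.41 ± 0.10 and -0.23 ± 0.07, and the interaction was 0.64 ± 0.12 (adjusted p = 0.0215). Pea15a, whose product holds the kinase ERK in the cytoplasm and binds death-effector domains, had the same pattern. It ran from 103.8 to 152 (median 130.8) and from 138.6 to 219 (median 160.4) CPM in transplants and from 189 to 319 (median 234) and from 126.2 to 264 (median 181) CPM in primary tumors, in the order 0 and 20 Gy. Its interaction was 0.76 ± 0.15 (adjusted p = 0.0215), made of effects of 0.37 ± 0.12 and -0.38 ± 0.08. At 0 Gy the 2 models did not overlap for Pea15a, as for 1.93% of all genes, and at 20 Gy they did. For Swap70 the order of the medians turned, the transplants being below the primary tumors at 0 Gy and above them at 20 Gy, and for Pea15a the transplants had the lower median at both doses. On the same build Abi1 lies at chr2:22940073-23040241, reverse strand, Swap70 at chr7:110221711-110283506, forward strand and Pea15a at chr1:172196728-172206804, reverse strand.

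Car4 encodes a carbonic anhydrase anchored to the outer cell membrane. It was near the floor in unirradiated primary tumors, where 5 of 16 libraries had no read and the highest had 10, 0.188 CPM. Irradiated primary tumors ran from 0.0227 to 1.85 (median 0.264) CPM, unirradiated transplants from 0.375 to 6.36 (median 2.2) and irradiated transplants from 0.156 to 2.82 (median 0.927). The unirradiated groups of the 2 models did not overlap, as for 1.93% of all genes, and the irradiated groups did. The radiation effects were -0.93 ± 0.65 in transplants and 3.68 ± 0.59 in primary tumors, with an interaction of -4.60 ± 0.90 (adjusted p = 0.0215). At such counts the fitted size of the change in primary tumors depends on how near 0 the unirradiated level is taken to be. With the mean of the neutrophil list as a term, chosen after the data were seen, the interaction was -3.27 (adjusted p = 0.252). Car4 lies at chr11:84957786-84966044, forward strand.

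**Figure D2:**
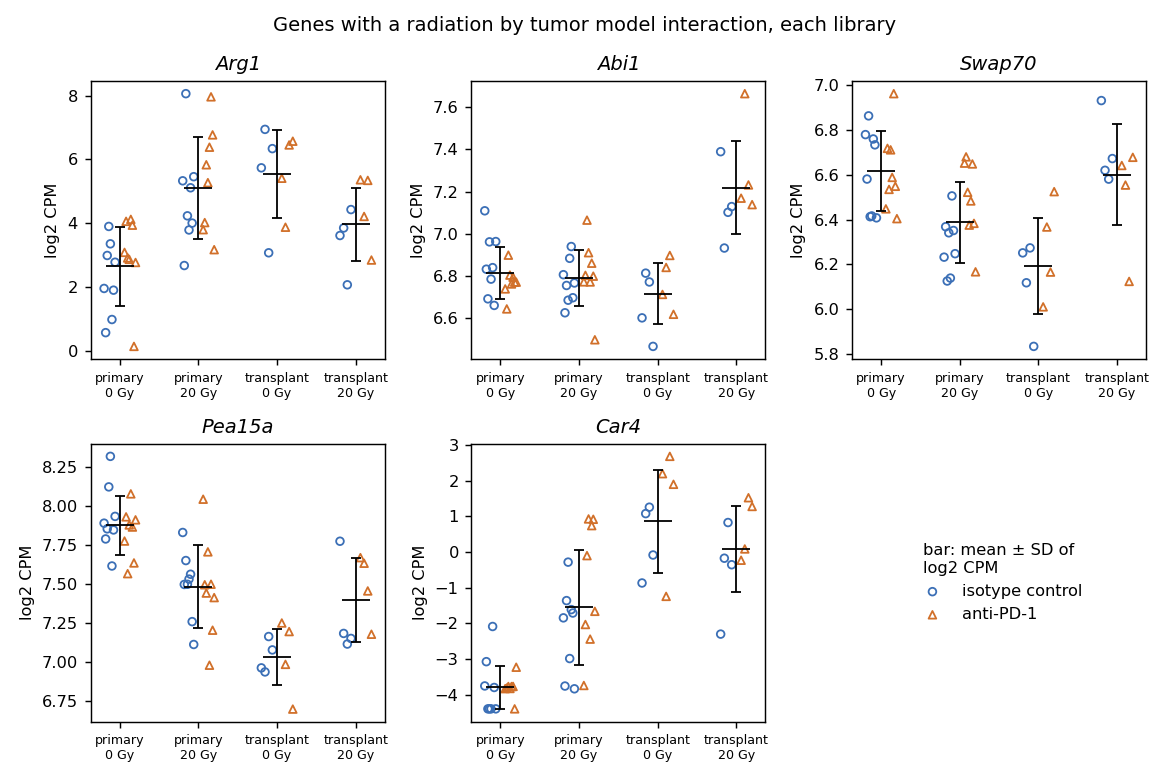
The level of each of the 5 genes in each of the 48 libraries, as log2 CPM with a prior count of 2, for primary tumors and transplants at 0 and 20 Gy; circles are isotype and triangles anti-PD-1 libraries, and bars give the mean ± SD of a group. Arg1 is lowest in unirradiated primary tumors and overlaps between irradiated primary tumors and unirradiated transplants, and the 8 irradiated transplants lie above the 8 unirradiated ones for Abi1.

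Leaving out 1 library at a time, Arg1 and Abi1 passed in 48 of 48 fits. Pea15a did not pass without irradiated isotype transplant 1 (adjusted p = 0.0535), nor did Swap70 without that library (0.0693) or unirradiated isotype transplant 4 (0.0517). Car4 did not pass without irradiated isotype transplant 1 (0.0593) or 4 (0.0504), irradiated anti-PD-1 transplant 1 (0.0637) or unirradiated anti-PD-1 transplant 3 (0.0503), nor without both unirradiated transplants that stood apart (0.0574). The animal numbers in the labels begin with 4 or 5, and this digit was unevenly spread: 7 of 8 unirradiated transplants had 5, against 4 of 8 irradiated transplants and 1 of 16 primary tumors at each dose. With the digit as a term edgeR called 0 genes for the radiation by tumor model interaction, with 1441 at an unadjusted p under 0.05, and Arg1 had an adjusted p of 0.0532 with an interaction of -5.06. The interactions of Abi1, Swap70, Pea15a and Car4 were then 0.52, 0.58, 0.73 and -4.60. Fitted within the animals numbered from 4, where 1 unirradiated transplant remained, the interaction was -2.21 ± 1.34 for Arg1, 0.35 ± 0.19 for Abi1, 0.66 ± 0.24 for Swap70, 0.86 ± 0.33 for Pea15a and -1.89 ± 1.61 for Car4. Within those numbered from 5, where 1 primary tumor remained at each dose, it was -4.79 ± 1.82, 0.50 ± 0.40, 0.50 ± 0.46, 0.38 ± 0.40 and -6.01 ± 2.91 in the same order. In these fits the groups of 1 library were assumed to vary like the others, and none of the 5 genes passed. What the digit stands for is not given in the sources used here, and its part in the results was tested no further.

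Another 15 genes completed the 20 with the smallest p, and none of them passed by edgeR. DESeq2 called all of these but Fcnb and Ear6, for which it gave no adjusted p, and limma voom called Nr4a1, Nr4a3, Tph2, Fam49a and Lilra5. The edgeR adjusted p of these genes ran from 0.054 to 0.0939. Of these, 9 had a negative and 6 a positive interaction. Cebpe, the transcription factor of late granulocyte maturation, had 0.107 to 8.32 (median 1.04) and 0.329 to 3.94 (median 0.873) CPM in transplants at 0 and 20 Gy, and 0 to 0.245 (median 0.0864) and 0.159 to 2.29 (median 0.636) CPM in primary tumors, with an interaction of -3.30 ± 0.70. In 15 of 16 irradiated primary tumors it was above every unirradiated one. Ltb4r1, the leukotriene B4 receptor through which neutrophils are drawn to a site, had medians of 7.78 and 9.66 CPM in transplants and of 1.24 and 8.61 CPM in primary tumors, and an interaction of -2.42 ± 0.53. Here the 2 models reached a like level after radiation from different starting points. Fcnb, a lectin of myeloid granules, and Ear6, a ribonuclease of eosinophils, had interactions of -5.20 ± 1.10 and -6.15 ± 1.45 but medians of at most 0.186 and 0.149 CPM in any group of dose and model. Both were highest in the unirradiated transplants that stood apart, where Ear6 reached 14.6 CPM. The interaction of Ear6 was -2.98 (adjusted p = 0.404) without unirradiated anti-PD-1 transplant 3, and that of Fcnb was -1.52 (adjusted p = 0.620) without both libraries. Treml1, a receptor of platelet granules, had medians of 0.514 and 0.0885 CPM in transplants and 0.308 and 0.3 in primary tumors, with an interaction of -2.76 ± 0.60, and Tph2, the neuronal tryptophan hydroxylase, had -3.00 ± 0.67 from at most 21 reads per library.

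The 6 positive interactions had positive fitted effects in transplants, from 0.47 for Nadk to 2.28 for Lilra5. In primary tumors they ran from -0.22 for Lilra5 to 0.04 for Plekho2, apart from -0.82 for Ltc4s. Lilra5, an activating immunoglobulin-like receptor of monocytes, ran from 1.29 to 8.47 (median 3.77) CPM at 0 Gy and from 9.66 to 57.6 (median 15.9) CPM at 20 Gy in transplants without overlap, and from 3.23 to 13.1 (median 5.64) CPM at 0 Gy and from 0.313 to 10.6 (median 5.35) CPM at 20 Gy in primary tumors, with an interaction of 2.50 ± 0.56. The same gap between the doses in transplants, found for 3.75% of all genes, was seen for 4 others that were likewise picked by their small p. These were Nadk, the kinase that makes NADP from NAD, Plekho2, a protein with a phosphoinositide-binding domain, Fam49a, a binding partner of the GTPase RAC1, and the noncoding Gm31410. Their interactions were 0.53 ± 0.11, 0.72 ± 0.16, 1.43 ± 0.32 and 2.27 ± 0.53. Ltc4s, which makes leukotriene C4, was higher in primary tumors: 7.15 to 30.4 (median 15.6) CPM at 0 Gy and 2.62 to 20.6 (median 7.78) CPM at 20 Gy, against 1.07 to 3.36 (median 1.75) and 1.97 to 8.07 (median 2.92) CPM in transplants. The unirradiated models did not overlap for it, as for 1.93% of all genes, and the interaction was 1.80 ± 0.39.

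**Figure D3:**
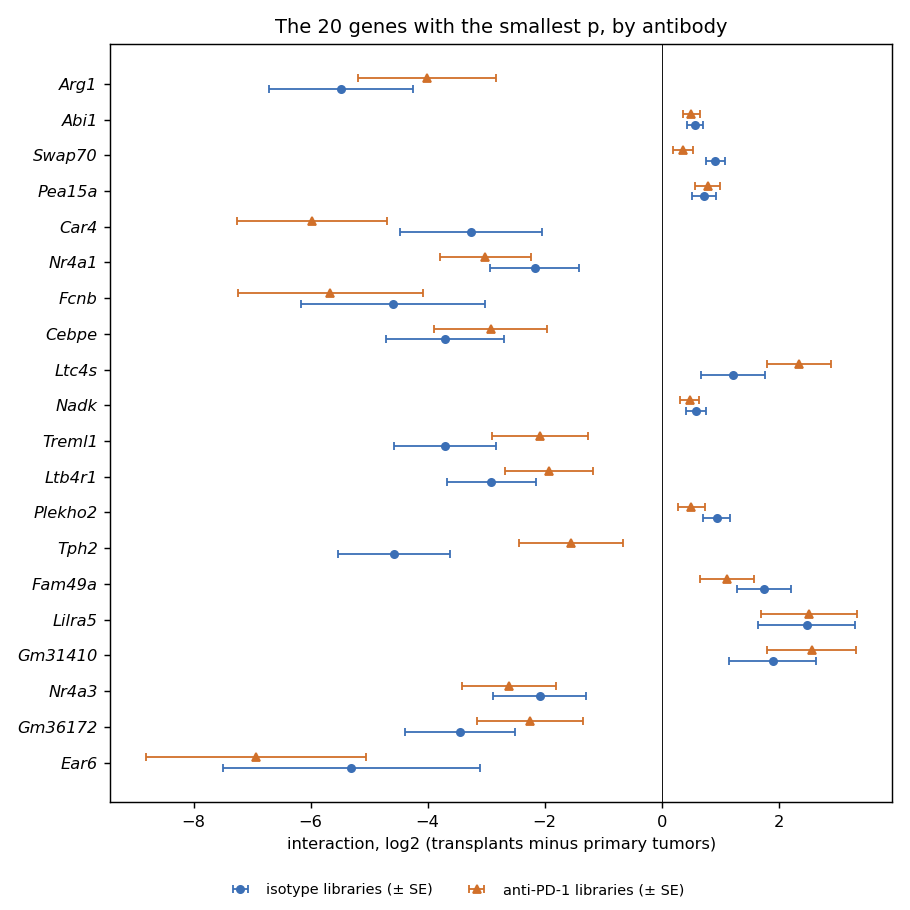
Interaction of the 20 genes with the smallest p, in log2 with SE, fitted within the isotype libraries (circles) and within the anti-PD-1 libraries (triangles). All 20 pairs of values lie on the same side of 0, which the choice of genes by the p of the pooled interaction favors, so it is a description only. Tph2 and Swap70 have the widest gaps in relation to their SE.

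The immediate early genes, switched on within minutes of a signal without new protein, held a pair of the 20 genes. Nr4a1 and Nr4a3 encode orphan nuclear receptors that are induced by antigen receptor and cyclic AMP signals and act as transcription factors without a known hormone, and Nr4a2 is the remaining member of the family. Nr4a1 ran from 45.7 to 367 (median 152) CPM in unirradiated and from 15.8 to 149.6 (median 37.6) CPM in irradiated transplants, 6 of 8 irradiated ones being below all unirradiated. Primary tumors had 10.4 to 68.5 (median 17.3) and 12.9 to 235 (median 28) CPM. The interaction was -2.69 ± 0.56 (adjusted p = 0.054) for Nr4a1, -2.42 ± 0.57 (adjusted p = 0.0939) for Nr4a3 and -1.68 ± 0.60 (adjusted p = 0.323) for Nr4a2. Medians of Nr4a3 were 35.5 and 9.42 CPM in transplants and 4.41 and 7.11 CPM in primary tumors, and those of Nr4a2 were 94.9 and 36.1, and 16.1 and 19. All 3 thus had their highest median in unirradiated transplants, and the ranges of the doses overlapped for Nr4a1 in both models. DESeq2 and limma voom each called Nr4a1 and Nr4a3. Within the animals numbered from 4 and from 5 the interaction was -0.22 ± 1.06 and -1.88 ± 1.62 for Nr4a1, -1.11 ± 1.15 and -0.66 ± 1.29 for Nr4a3, and -0.39 ± 1.32 and -0.78 ± 1.15 for Nr4a2, all nearer to 0 than in the pooled fit. Over the list of 21 immediate early genes 1 member was positive and 4 negative at an unadjusted p under 0.05, with a median interaction of -0.08. Jun, a subunit of AP-1, was the positive one (0.58 ± 0.21), and Ier3 was the other negative one (-1.16 ± 0.57).

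The promoters of the 3 receptor genes are shown because their fitted interactions had the same sign, each from 250 bases before to 50 after the annotated start (RefSeq, GRCm38.p6), with the 5-base half-site of the cyclic AMP response element, TGACG on either strand, in capitals. By the RefSeq starts, Nr4a1 is at chr15:101266596-101266895 on the forward strand, Nr4a2 at chr2:57123954-57124253 on the reverse and Nr4a3 at chr4:48045055-48045354 on the forward strand.
Nr4a1: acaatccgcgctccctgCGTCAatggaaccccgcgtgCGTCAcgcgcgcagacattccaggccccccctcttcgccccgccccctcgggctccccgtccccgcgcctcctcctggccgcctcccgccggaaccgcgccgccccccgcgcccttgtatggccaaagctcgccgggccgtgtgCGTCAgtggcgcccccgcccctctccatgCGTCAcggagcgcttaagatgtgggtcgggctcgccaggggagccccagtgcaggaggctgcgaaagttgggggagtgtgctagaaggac
Nr4a2: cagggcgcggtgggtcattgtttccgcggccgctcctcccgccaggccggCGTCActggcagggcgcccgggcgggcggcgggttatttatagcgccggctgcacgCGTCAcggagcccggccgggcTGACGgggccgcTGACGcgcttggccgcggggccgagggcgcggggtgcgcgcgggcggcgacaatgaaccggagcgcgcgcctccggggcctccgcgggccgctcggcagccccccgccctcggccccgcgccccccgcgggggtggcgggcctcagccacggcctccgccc
Nr4a3: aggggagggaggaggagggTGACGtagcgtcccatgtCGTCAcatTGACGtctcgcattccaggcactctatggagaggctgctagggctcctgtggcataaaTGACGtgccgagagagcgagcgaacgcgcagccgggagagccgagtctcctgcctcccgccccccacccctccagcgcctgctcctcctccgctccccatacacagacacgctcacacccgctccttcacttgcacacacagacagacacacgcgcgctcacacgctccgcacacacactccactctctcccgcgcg
Each holds 4 matches. At least 1 match is in 20.8% of the 32851 promoters of the table, and 3 or more are in 1.03%. A match is a run of letters and was not tested as a binding site.

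The lists of genes by cell type and pathway are described by counts of members at an unadjusted p under 0.05, to be read against 8.86% of all genes, and by the median interaction, to be read against -0.004. Signs of members are to be read against 9548 positive and 9779 negative interactions among all genes tested. Medians are pooled over the antibodies, and for some lists their sign differed between isotype and anti-PD-1 libraries. Of all members of the 46 lists, Arg1 alone passed the adjusted threshold by edgeR. DESeq2 also called Mmp8, Camp, Ngp and Retnlg among neutrophil genes, Ccl20, Ppbp and Ccl6 among chemokines, and Il1rn, Tgfbr1, Vegfa, F10, Nr4a1 and Nr4a3, of which limma voom called the last pair. Among 20 neutrophil genes 10 were negative and 0 positive at an unadjusted p under 0.05, and the median interaction was -1.86, from median effects of 0.40 in transplants and 2.16 in primary tumors. The mean log2 CPM of the list ran from -0.52 to 3.56 in unirradiated and 0.15 to 4.74 in irradiated primary tumors, and from 0.60 to 4.54 and 1.92 to 3.49 in transplants. Mmp8, the neutrophil collagenase (-3.49 ± 0.96), Clec4d and Clec4e, receptors for fungal and mycobacterial glycolipids (-1.94 ± 0.61 and -1.78 ± 0.61), and Trem1, an amplifier of myeloid activation (-1.78 ± 0.64), had positive effects in both models that were larger in primary tumors. The granule genes Camp (-5.59 ± 1.35) and Ltf (-4.12 ± 1.03) instead had negative fitted effects in transplants, of -4.08 and -4.33, and their interactions without both libraries that stood apart were -2.90 and -0.63. Camp reached 21 and 68.7 CPM in the unirradiated transplants that stood apart and at most 3.12 in the other 6. Without both libraries the list had 6 negative members and a median of -1.44. Of 30 chemokines 11 were negative and 0 positive, with a median of -0.94 (-0.57 without both libraries, where 11 were negative). Ccl6, a myeloid attractant, ran from 6.77 to 28.4 (median 17.3) CPM at 0 Gy and from 20.8 to 571 (median 83.9) CPM at 20 Gy in primary tumors and from 19.8 to 145 (median 59.3) CPM at 0 Gy and from 31.5 to 327 (median 52) CPM at 20 Gy in transplants, with overlap in both, and had an interaction of -2.42 ± 0.58 (adjusted p = 0.0939). Values for Ccl20, Ccl9, Ccl3, Ccl8 and Ccl11 were -3.12, -1.48, -1.72, -1.61 and -1.76, and for the neutrophil attractants Cxcl2 and Cxcl3 -2.05 and -2.27. The platelet chemokines Ppbp and Pf4 had -5.34 and -1.27. Ppbp stood at 6.35 and 20.8 CPM in both libraries and at most 0.609 in the other unirradiated transplants, and had -1.77 without both.

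Among 21 genes of the IL-1 and IL-6 families 5 were negative and 0 positive, and the median was -0.48. Il1rn, the IL-1 receptor antagonist, ran from 23.1 to 92.2 (median 36.5) CPM at 0 Gy and from 80.9 to 168 (median 116.2) CPM at 20 Gy in transplants and from 4.6 to 36.4 (median 8.74) CPM at 0 Gy and from 37.3 to 154 (median 69.2) CPM at 20 Gy in primary tumors, with effects of 1.35 and 2.83 and an interaction of -1.48 ± 0.38. The doses did not overlap in primary tumors, as for 0.0466% of all genes, and did in transplants. Il6 (-2.52 ± 0.78), Lif (-1.84 ± 0.59), Csf2 (-1.77 ± 0.75) and Il11 (-1.49 ± 0.72) were the other negative members. The 24 macrophage and monocyte genes were split, with 2 positive and 3 negative and a median of -0.03. Beside Arg1 these were the macrophage growth factor receptor Csf1r (0.70 ± 0.31) and Ms4a7 (0.96 ± 0.40) on the positive side, and the Fc receptor Fcgr4 (-1.03 ± 0.50) and the endotoxin co-receptor Cd14 (-0.59 ± 0.29) on the negative. Of 9 mast cell and eosinophil genes 3 were negative, with a median of -0.48 that became 0.36 without both libraries. There Prg2, the eosinophil major basic protein, had 114.9 CPM in 1 of the 2 and at most 1.55 in the tumors outside that pair, with an interaction of -4.90, and -0.54 without both. Of 19 complement and coagulation genes 3 were negative, the clotting factor genes F10 (-2.65 ± 0.67) and F7 (-2.40 ± 0.67) and Thbd (-1.03 ± 0.46), whose product thrombomodulin curbs clotting.

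Genes induced by the 2 interferon types were listed separately, though counts do not show which interferon induced a gene. Type I interferon-stimulated genes had median effects of 1.77 in transplants and 1.84 in primary tumors, and none of 37 reached an unadjusted p under 0.05 in either direction by edgeR, and none passed by DESeq2 or limma voom. Their median interaction was 0.06, and Oasl1, an antiviral regulator, had 0.72 ± 0.48 (95% interval -0.24 to 1.69). The interferon-gamma-inducible GTPases and chemokines had a negative interaction in all 27 members, of which 8 reached an unadjusted p under 0.05, and a median of -1.004 from effects of 1.23 and 2.01. Cxcl9, which attracts activated T cells through CXCR3, ran from 15.7 to 374 (median 73.4) CPM at 0 Gy and from 24.4 to 1592 (median 479.8) CPM at 20 Gy in primary tumors and from 122.95 to 1397 (median 589.5) CPM at 0 Gy and from 451 to 1287 (median 995) CPM at 20 Gy in transplants. Unirradiated transplants had a median near that of irradiated primary tumors, and all of these ranges overlapped. The interaction was -1.92 ± 0.68 (adjusted p = 0.313). The guanylate-binding and immunity-related GTPases Gbp5, Gbp10, Gbp7, Iigp1 and Igtp had -1.15, -1.82, -0.77, -1.47 and -1.05, and Nos2, inducible nitric oxide synthase, had -1.23. The mean log2 CPM of the list ran from 2.60 to 5.26 and 3.31 to 7.22 in primary tumors, and from 4.06 to 6.94 and 6.42 to 7.56 in transplants. Without both libraries that stood apart 1 member was below 0.05 and the median was -0.75. The nucleic acid sensors and the Schlafen family, with medians of 0.07 and -0.14, had no member below 0.05 (2 sensor genes were positive without both libraries), and their smallest p were those of Irf3, which switches on interferon genes (0.19 ± 0.10), and Slfn1 (-0.71 ± 0.41).

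Among antigen presentation and lymphocyte genes no member was below an unadjusted p of 0.05 by edgeR: 16 MHC class I, 11 MHC class II, 21 T cell, 9 regulatory T cell, 23 NK and cytotoxic and 14 B and plasma cell genes. Medians were -0.43, -0.005, -0.45, -0.48, -0.19 and -1.04 in that order. Within isotype libraries those of MHC class II, regulatory T cell and NK and cytotoxic genes were -0.38, -0.78 and -0.35. Within anti-PD-1 libraries they were 0.31, 0.06 and 0.02, and the other lists were negative in both. The immunoproteasome genes Psmb10 and Psmb8, which cut peptides for class I, had -0.62 ± 0.32 and -0.62 ± 0.36. Icos and Ctla4, the costimulatory and inhibitory receptors of activated T cells, had -1.05 ± 0.63 and -1.02 ± 0.67. Prf1, the pore-forming protein of killer cells, had -0.87 ± 0.68, Klra7, an NK receptor, 0.76 ± 0.61, Il2ra, the high-affinity IL-2 receptor chain, -0.72 ± 0.49, and the class II genes H2-DMb2 and H2-Ob -0.35 ± 0.51 and 0.31 ± 0.58. The plasma cell chaperone Mzb1 had -1.39 ± 0.74. Among 19 checkpoint receptors and ligands 4 were negative and 2 positive (2 and 2 without both libraries that stood apart). Cd274, which encodes PD-L1, ran from 11.7 to 82.1 (median 35.5) CPM at 0 Gy and from 77.8 to 163 (median 103.8) CPM at 20 Gy in transplants and from 3.18 to 26.3 (median 8.84) CPM at 0 Gy and from 11.3 to 107.02 (median 52.2) CPM at 20 Gy in primary tumors. Irradiated transplants had the highest median, with overlap between doses in both models, while the interaction was -1.12 ± 0.45 (adjusted p = 0.423), the log2 changes being 1.47 in transplants and 2.59 in primary tumors. The other PD-1 ligand, Pdcd1lg2, had -1.92 ± 0.64 and the inhibitory receptor Lag3 -1.21 ± 0.38, with adjusted p of 0.269 and 0.22. Entpd1, the ectoenzyme CD39, and Cd244a, a receptor of NK cells, were positive (0.91 ± 0.35 and 0.99 ± 0.47).

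**Figure D4:**
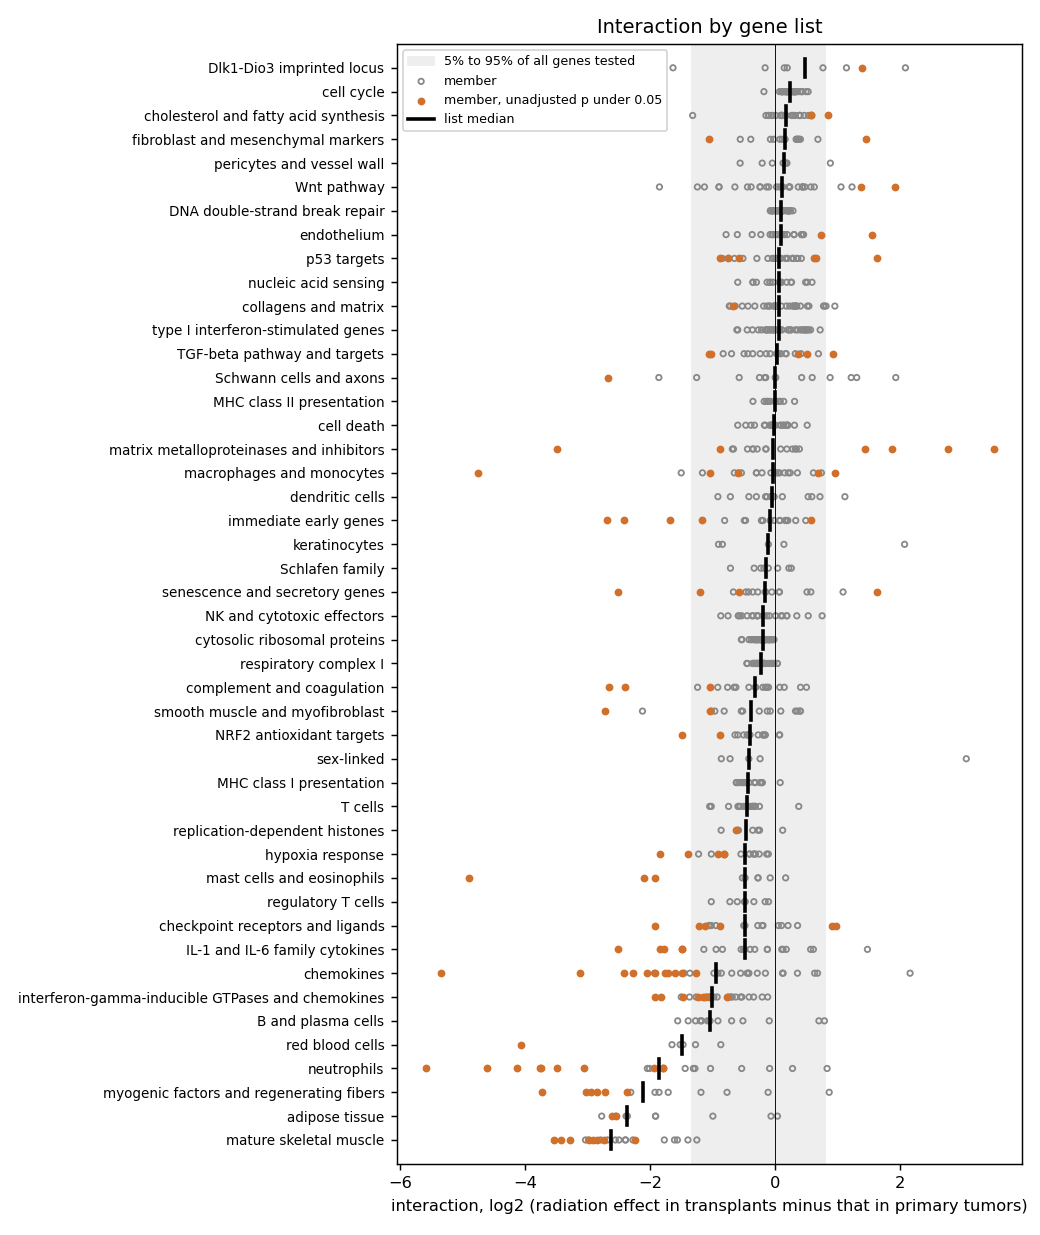
Interaction in log2 of the members of the 46 gene lists; open points are members, filled points are members with an unadjusted p under 0.05, vertical bars are list medians, and the grey band spans 5% to 95% of all genes tested. The medians of skeletal muscle, adipose, myogenic and neutrophil genes lie furthest below 0, at -2.62, -2.36, -2.11 and -1.86.

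The 29 p53 targets had median effects of 0.56 in transplants and 0.45 in primary tumors and a median interaction of 0.07, with 3 members positive and 3 negative at an unadjusted p under 0.05. Gdf15, a secreted stress hormone, ran from 0.0715 to 0.33 (median 0.185) CPM at 0 Gy and from 1.31 to 2.71 (median 1.7) CPM at 20 Gy in transplants and from 0.532 to 5.06 (median 1.79) CPM at 0 Gy and from 1.92 to 10.7 (median 6.73) CPM at 20 Gy in primary tumors. Its effects were 3.24 ± 0.41 and 1.602 ± 0.26, and the interaction was 1.64 ± 0.46 (adjusted p = 0.157), with a higher median in primary tumors at either dose. The doses did not overlap in transplants, as for 3.75% of all genes, and overlapped in primary tumors. Bbc3, the death activator PUMA (0.66 ± 0.21), and Sesn1 (0.62 ± 0.29), a stress-induced inhibitor of mTORC1, were also positive. Cdkn1a, the cell cycle inhibitor p21 (-0.57 ± 0.27), Fas, the death receptor (-0.75 ± 0.36), and Cd80, a costimulatory ligand (-0.88 ± 0.38), were negative. Without both libraries that stood apart 3 members were positive and 0 negative. Host cells keep Trp53, and bulk counts do not separate them from tumor cells. The cell cycle list had positive interactions in 37 of 38 members, none below an unadjusted p of 0.05, and a median of 0.24. Its median effects were -0.50 in transplants and -0.70 in primary tumors. Within isotype libraries the median interaction was 0.54, and within anti-PD-1 libraries 0.04. Ccne1, the cyclin of S phase entry (0.43 ± 0.25), and E2f1 (0.34 ± 0.20) had the smallest p. The 27 double-strand break repair genes had a median of 0.10 and none below 0.05, with 0.24 ± 0.17 for the end-sensing nuclease Mre11a and 0.29 ± 0.21 for Prkdc, the kinase of end joining.

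Hypoxia response genes were negative in all 16 members, 5 of them at an unadjusted p under 0.05, with a median of -0.48. Vegfa, the main growth factor of blood vessels, ran from 103.6 to 436 (median 205) CPM at 0 Gy and from 30.4 to 151 (median 109.2) CPM at 20 Gy in transplants and from 43.6 to 234 (median 76.3) CPM at 0 Gy and from 53.1 to 398 (median 95.9) CPM at 20 Gy in primary tumors. The doses overlapped in both models, with the highest median in unirradiated transplants. The interaction was -1.83 ± 0.48 (adjusted p = 0.127), and that of the mitochondrial regulators Bnip3 and Pdk1 -1.40 ± 0.57 and -0.91 ± 0.32. The list of 16 NRF2 targets had a median of -0.40, with Nqo1, a quinone reductase, at -1.49 ± 0.67 and Gclc, of glutathione synthesis, at -0.88 ± 0.36. Its median was 0.07 within isotype and -0.89 within anti-PD-1 libraries. Matrix-degrading enzymes were split: 4 positive and 2 negative of 20. The stromelysins Mmp3 and Mmp10 and the collagenase Mmp13 had 2.77 ± 1.05, 3.51 ± 1.16 and 1.87 ± 0.65, and the neutrophil collagenase Mmp8, which lies beside them on chromosome 9, had -3.49 ± 0.96. Mmp10 ran from 19.3 to 96.2 (median 38.8) CPM at 0 Gy and from 31.3 to 644 CPM at 20 Gy in transplants and from 0.602 to 189 (median 10.3) CPM at 0 Gy and from 0.295 to 68.1 (median 5.01) CPM at 20 Gy in primary tumors, where the spread was wide. Plau, urokinase, had 1.44 ± 0.44, and Timp1, an inhibitor of these enzymes, -0.88 ± 0.36. In the TGF-beta list both receptors were positive, Tgfbr1 at 0.93 ± 0.22 (adjusted p = 0.0971) and Tgfbr2 at 0.52 ± 0.18, as was the ligand Tgfb1 (0.38 ± 0.14), while Tgfb2 and the activin subunit Inhba were negative (-1.02 and -1.06). Tgfbr1 ran from 57.9 to 115.7 (median 79.8) CPM at 0 Gy and from 88.9 to 212 (median 129.1) CPM at 20 Gy in transplants and from 72.5 to 155 (median 96.8) CPM at 0 Gy and from 54.2 to 153 (median 87.5) CPM at 20 Gy in primary tumors. Both ranges overlapped between doses. DESeq2 called Vegfa and Tgfbr1, and limma voom called neither.

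**Figure D5:**
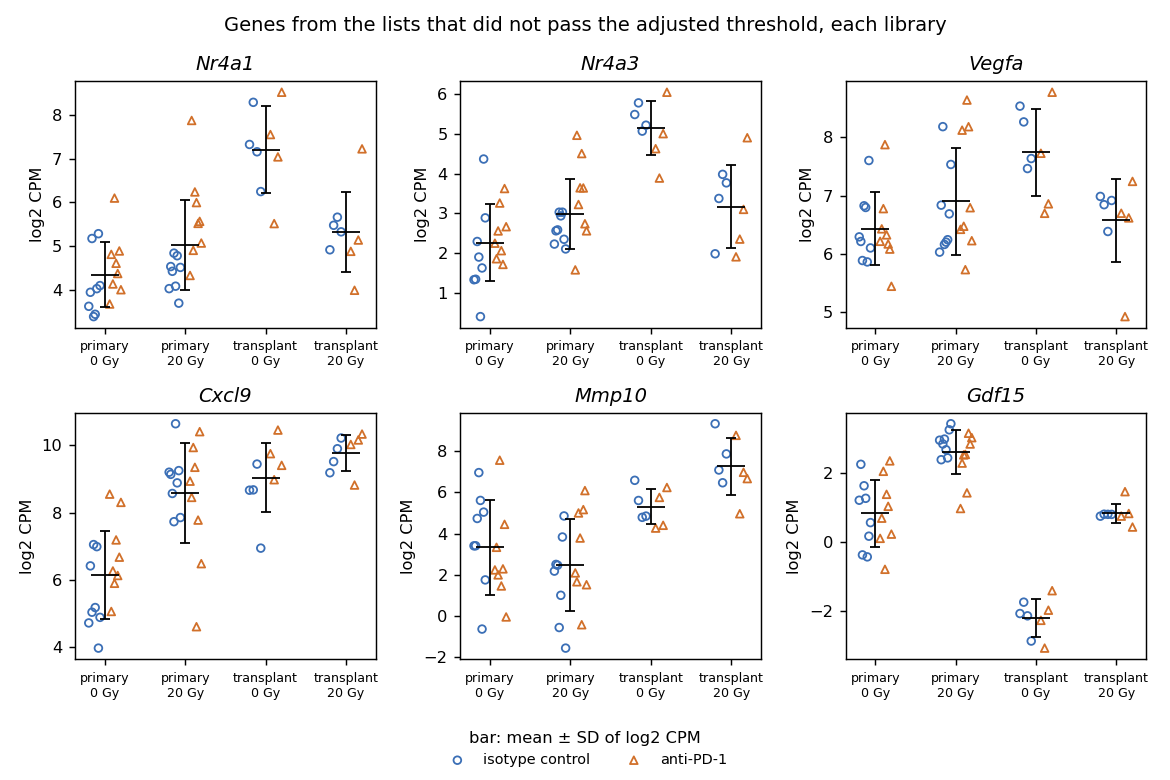
Levels of 6 genes of the lists, chosen after their values were seen, in each of the 48 libraries as log2 CPM, drawn as in the plot of the 5 genes that passed. Nr4a1, Nr4a3 and Vegfa have their highest means in unirradiated transplants, Gdf15 its lowest, and Mmp10 is high in irradiated transplants with a wide spread among primary tumors; none passed the adjusted threshold by edgeR, while DESeq2 called Nr4a1, Nr4a3 and Vegfa and limma voom Nr4a1 and Nr4a3.

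Genes of skeletal muscle, the tissue in which the tumors grew, had the most negative median of all lists. All 22 mature skeletal muscle genes were negative, 8 at an unadjusted p under 0.05, with a median of -2.62 from effects of -0.13 in transplants and 2.40 in primary tumors. Without both libraries that stood apart 2 were below 0.05 and the median was -2.24. Acta1, skeletal actin, ran from 12.4 to 1464 (median 328) CPM at 0 Gy and from 2.19 to 19390.0 (median 515) CPM at 20 Gy in primary tumors and from 17.4 to 5064 (median 1403) CPM at 0 Gy and from 23.2 to 2774 (median 1155) CPM at 20 Gy in transplants, and its interaction of -2.97 ± 1.39 had an adjusted p of 0.534. Mylpf and Mybpc2, a light chain and a binding protein of fast myosin, had -3.28 ± 1.39 and -3.54 ± 1.51. The mean log2 CPM of the list ran from 1.64 to 7.91 and -0 to 11.56 in primary tumors and from 2.24 to 9.53 and 2.35 to 9.30 in transplants, so that all 4 groups overlapped. Its medians over libraries were 5.80 and 6.21 in primary tumors and 7.53 and 7.68 in transplants. The median primary tumor thus moved far less than the fitted effect of 2.40. The myogenic and regenerating fiber list had a median of -2.11 and 6 negative members (-1.68 and 1 without both libraries), among them the fusion peptide gene Mymx (-3.73 ± 1.25) and the stem cell factors Myf5 and Pax7 (-2.95 ± 1.22 and -2.85 ± 1.18). The median interaction of this list was -0.57 within isotype and -2.95 within anti-PD-1 libraries. Its mean log2 CPM had medians of 0.11 and 0.56 in primary tumors and 2.36 and 2.85 in transplants, at 0 and 20 Gy. Adipose genes had a median of -2.36, with Plin4, of lipid droplets, at -2.61 ± 1.04 and Cidea at -2.55 ± 1.04. The mean log2 CPM of the adipose list had medians of 0.73 and 0.74 in primary tumors and 2.45 and 1.63 in transplants, at 0 and 20 Gy. Red blood cell genes had -1.49, and -0.48 without the libraries that stood apart, with Slc4a1, the anion exchanger of red cells, at -4.06 ± 1.27 (1.12 without both) and the globin gene Hbb-bt at -1.65 ± 0.87 (-0.81 without both). With the mean of the muscle list as a term, edgeR called 8 genes, the 5 above among them, and the 5 genes had the same sign.

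The remaining lists had medians between -0.47 and 0.48. Few members were below an unadjusted p of 0.05, except in the senescence and secretory list. The 28 cholesterol and fatty acid synthesis genes had a median of 0.17, and the sterol enzymes Sc5d and Mvk were positive (0.58 and 0.57). Endothelial genes had 2 positive of 24, the leukocyte-catching selectin Sele (1.56 ± 0.47) and the VEGF receptor Kdr (0.74 ± 0.32). The Wnt inhibitors Nkd2 and Dkk2 were positive (1.91 and 1.38), and Rian, a noncoding RNA of the Dlk1-Dio3 locus, had 1.39 ± 0.52. Among 32 collagen and matrix genes the crosslinking enzyme Lox was the 1 negative member (-0.67), and the median was 0.06. That median was 0.54 within isotype and -0.44 within anti-PD-1 libraries. Ribosomal protein genes were negative in all 41, with a median of -0.20 and none below 0.05. Complex I subunits were negative in 34 of 36, with a median of -0.22. These signs were not shared by the antibodies. Within isotype libraries the medians were -0.80 for ribosomal and -0.53 for complex I genes, and within anti-PD-1 libraries 0.34 and 0.04. The smooth muscle list had 2 negative members, Des and Tpm1, of the muscle filament system (-2.72 ± 1.26 and -1.04 ± 0.47). Fibroblast markers were split between Dpt (1.46 ± 0.63), a matrix protein, and Ly6a (-1.06 ± 0.42), a surface antigen, and the histone gene Hist1h2be had -0.62 ± 0.29. Of 17 senescence and secretory genes 1 was positive and 3 negative, 23.5% of the list, with a median of -0.16. The growth factor Areg was 1 of the negative ones (-1.20 ± 0.57). Without both libraries that stood apart 1 was positive and 2 negative. No member of the dendritic cell, pericyte, keratinocyte, cell death or sex-linked lists was below 0.05, whereas without both libraries that stood apart 2 dendritic cell genes and 1 cell death gene were positive. The smallest p in these were those of Wdfy4 (0.59 ± 0.30), of cross-presenting dendritic cells, Cspg4 (0.89 ± 0.54), the pericyte proteoglycan NG2, Krt14 (2.08 ± 1.25), Gsdmd (-0.38 ± 0.20), a pore-former of pyroptosis, and Xist (3.06 ± 2.11), expressed from the inactive X chromosome.

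Whether the interaction itself depended on the antibody was tested as anti-PD-1 minus isotype. Within the isotype libraries edgeR called 1 gene (0.00517%), Swap70, with 1908 (9.87%) at an unadjusted p under 0.05, and within the anti-PD-1 libraries 0 genes (0%) with 920 (4.76%). DESeq2 called 5 and 3 genes there, and limma voom 1 and 0. The difference between the antibodies was called for 0 genes (0%) by edgeR, DESeq2 and limma voom, and 1038 genes (5.37%) had an unadjusted p under 0.05 by edgeR. Of the 5 genes, Swap70 had 0.92 ± 0.17 within isotype and 0.36 ± 0.17 within anti-PD-1 libraries, a difference of -0.55 ± 0.24 (unadjusted p = 0.0235, adjusted p = 0.791). For Arg1 the values were -5.48 ± 1.23 and -4.01 ± 1.18, for Abi1 0.57 ± 0.14 and 0.50 ± 0.14, for Pea15a 0.72 ± 0.21 and 0.78 ± 0.21, and for Car4 -3.25 ± 1.21 and -5.98 ± 1.28.

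The 5 genes with the smallest p for a lower interaction under anti-PD-1, none of which passed, were Siglec15 and Oscar, receptors known from osteoclasts, Itgb3, an integrin subunit, Alpl, an alkaline phosphatase, and Mmp13, a collagenase. Their interactions within isotype and anti-PD-1 libraries were 3.40 ± 1.23 and -2.42 ± 1.22 for Siglec15, 2.25 ± 1.52 and -4.76 ± 1.59 for Oscar, and 1.47 ± 0.50 and -0.74 ± 0.50 for Itgb3. Alpl had 2.81 ± 1.09 and -2.11 ± 1.08, and Mmp13 3.66 ± 0.84 and 0.05 ± 0.81. Siglec15 ran from 0.22 to 18.5 (median 1.52) CPM in the 8 unirradiated primary tumors with isotype and from 0.523 to 2.36 (median 1.32) CPM in those with anti-PD-1. Alpl ran from 0.623 to 83 (median 1.65) CPM in the 4 irradiated isotype transplants. In the 4 with anti-PD-1 it ran from 1.87 to 4.36 (median 2.58) CPM, the higher median. Oscar ran from 0.2 to 26.5 (median 0.891) CPM in the 8 irradiated primary tumors with anti-PD-1. In those with isotype it ran from 0.165 to 2.79 (median 0.375) CPM. Which cells expressed these genes was not tested. In the other direction Cpn1, a carboxypeptidase of plasma, had -1.12 ± 0.91 and 3.65 ± 0.93 from levels that did not pass 1.53 CPM. The other 4 genes of that direction were predicted genes or an immunoglobulin segment.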

How the data were processed

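Polyadenylated RNA was sequenced as paired ends from stranded libraries. The labels and methods describe trimming with Trimmomatic 0.36, alignment to mm10 with STAR and counting on GENCODE M17. The deposited values were raw counts in 1 table, with no normalization by the authors. Whether counting used the strand is not given in the sources used here, so overlapping genes are uncertain. Groups came from the sample labels, in which each tumor has an animal number of its own. Of 37469 identifiers, 37408 matched GENCODE M21 (GRCm38) without their version, which gave symbols and coordinates.

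The test was edgeR 4.0.16 under R 4.3.3 on the counts of 48 libraries: filterByExpr by 8 groups (19327 genes), TMM factors, and a robust quasi-likelihood fit of tumor model, dose, their interaction and antibody. The interaction coefficient was tested two-sided, with Benjamini-Hochberg adjustment over all genes and a threshold of 0.05. Values within an antibody came from a fit of 8 group means. SEs came from the fold change and the F statistic. The test was tried on simulated counts. DESeq2 and limma voom, other scalings and filters, covariates and the omission of each library were alternatives. Chi-square over degrees of freedom was at least 86.7 for every pair of libraries within a group, so none was taken for a library deposited more than once.

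The comparison, the members and the lists were chosen with earlier results of these data known. Named genes were Trp53, the 20 with the smallest p because under 10 passed, the members of each list that passed or otherwise at least the 2 with the smallest p, and 5 in each direction for the difference between antibodies; list members below an unadjusted p of 0.05 were named after their values were seen. Some list members are not reported here.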

Additional observations from a re-analysis of the deposited data

Results flagged for a closer look

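The radiation effect differed between transplants and primary tumors for Arg1 (interaction -4.75), Abi1 (0.54), Swap70 (0.64), Pea15a (0.76) and Car4 (-4.60), each by the test of the interaction itself in edgeR. None of these passed with the first digit of the animal number as a term, and Arg1 alone passed with Xist as a term.

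Dixon's test for a library far from its group was applied to the 8 unirradiated and the 8 irradiated transplants, for the 20 genes with the smallest p and the 46 list means. It marked 9 cases, 6.82% of the groups tested, where chance marks about 5%, 1 in 20 groups. Irradiated anti-PD-1 transplant 3 was low in Swap70, at 6.12 log2 CPM against at least 6.55 in the others. Irradiated anti-PD-1 transplant 2 was high in Ltc4s (3.02 against at most 1.95) and in the mean of the p53 targets (5.39 against 4.87), and low in the means of the cell cycle (4.66 against 5.39), NRF2 (5.66 against 6.19) and senescence and secretory lists (5.39 against 6.04). Unirradiated anti-PD-1 transplant 3 was high in Ear6, at 3.88 against at most -0.56. The mean of the skeletal muscle list was low in isotype transplant 1 both without radiation (2.24 against 6.71) and with it (2.35 against 6.37), which are different mice.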

How the results depend on the processing

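The count of genes called for the radiation by tumor model interaction, 5 in the report, was 9 with RLE size factors, 3 with upper-quartile factors, 3 with library totals alone, 2 with a filter at an average log2 CPM of 1, 79 with DESeq2 and 9 with limma voom. It was 8 with the muscle list as a term, in common or (chosen after seeing the data) within each model. It was 1 (Arg1) with Xist as a term, and 0 with the first digit of the animal number as a term (1441 at an unadjusted p under 0.05). It was 0 in the isotype libraries alone (1901 unadjusted) and 0 in the anti-PD-1 libraries alone (714 unadjusted), where fewer samples entered. As alternatives chosen after seeing the data, it was 11 without both unirradiated transplants that stood apart and 8 when irradiated primary tumor 6 of anti-PD-1 was left out too. Leaving out 1 library gave 2 (without irradiated isotype transplant 1) to 25 (without unirradiated anti-PD-1 transplant 2). It was past 1.5 times the reported count also without unirradiated transplants isotype 3 (8) and anti-PD-1 1 and 4 (8 each), irradiated anti-PD-1 transplants 2 (10) and 3 (8), unirradiated primary tumors isotype 7 (13) and anti-PD-1 4 (11), and irradiated primary tumors isotype 8 (9) and anti-PD-1 1 (11), 2 (9), 5 (16) and 6 (10). Without that irradiated isotype transplant 1 the calls of Swap70, Pea15a and Car4 were lost. Within isotype libraries the count was 0 with RLE size factors, no filter or the muscle term, 5 with DESeq2 and 0 to 2 without 1 library, and within anti-PD-1 libraries 3 with DESeq2 and 0 to 0 without 1 library. The Trp53 interaction ran from -0.0245 to 0.17 without 1 library and was -0.11 in the isotype libraries alone. Signs turned for H2-DMb2 (0.10 with limma voom, 0.18 in anti-PD-1 libraries alone), Ctla4 (0.057), Eif2s3y (0.19), Rpl12 (0.11) and Rpl37 (0.30) in the anti-PD-1 libraries alone, H2-Ob in the isotype libraries alone (-0.42), Slc4a1 without both unirradiated transplants (1.12, and 1.04 with the primary tumor also left out), and Xist (-0.039) and Eif2s3y (0.50) with Xist as a term. The Xist term is the level of Xist itself, so a value near 0 for Xist follows from that fit. Where no cause is stated, the cause was not tested. The 5 genes kept their sign in all of these, though Arg1 (adjusted p = 0.0971), Swap70 (0.0584) and Car4 (0.252) lost their call with the neutrophil list as a term, where 6 genes were called. The neutrophil term was also chosen after seeing the data. No paired analysis was possible, since each tumor came from an animal of its own, with 1 dose and 1 antibody. Precision was limited by 4 transplants per dose and antibody and, for genes such as Car4, by counts near 0. All transplants came from 1 line, so the p-values do not cover differences between transplanted lines.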

Other observations

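In the 2 libraries of the transplanted line, with no replicate and CPM taken of the library total, the library labelled as the parental tumor had 0.103 CPM of the leukocyte gene Ptprc and 0 of Lilra5, whereas the library labelled as the cell line had 91.7 and 11.5 CPM, which goes against what tumor tissue and a cultured line would hold. Under the same labels, Arg1 stood at 11.4 and 39.1 CPM, Abi1 at 149 and 134.3, Swap70 at 136.3 and 94.9, and Pea15a at 82.5 and 128.8. Car4 had 0 reads in the former and 1 in the latter. Nr4a1 had 73.1 and 100.8 CPM, and Gdf15 0.144 and 0.437. The library labelled as the parental tumor had 5 reads of Ptprc and 0 reads each of Ltb4r1, Cebpe and Fcnb.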
